A study of Rattus norvegicus with 2 samples.

Results

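The orexin and melanin-concentrating hormone (MCH) systems were described through 5 genes: the peptide precursors Hcrt and Pmch, the orexin receptors Hcrtr1 and Hcrtr2, and the MCH receptor Mchr1. They were taken by name, by matching the RefSeq accessions on the arrays to rat symbols, and all 5 had a probe among the 16579 named genes. RNA came from the hypothalamus of rats of the SHR strain, which is inbred and becomes hypertensive with age, at 9 weeks of age. All rats were SHR that fed freely and were killed under ether, and the tissue was a dissected block rather than isolated nuclei. Each sex was 1 pool of RNA from 5 rats (100 ng each) on 1 single-colour microarray, so the spread between animals was not measured and no test was run. The oestrous stage of the females was not given in the sources used here. The comparison of the pools addresses how expression in a brain centre of cardiovascular control differs between male and female SHR.

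Orexin and MCH neurons lie intermingled in the lateral hypothalamus and project widely through the brain. The orexin precursor is cut into orexin-A and orexin-B, which promote wakefulness, feeding and sympathetic outflow, and loss of orexin signalling causes narcolepsy. The MCH precursor yields MCH, which promotes feeding and sleep, together with the neuropeptides NEI and NGE. Orexin-A is bound by the receptor products of both Hcrtr1 and Hcrtr2, whereas orexin-B is bound mainly by that of Hcrtr2. The product of Mchr1 is the MCH receptor of rodents.

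All 5 genes had a lower signal in the male pool than in the female pool, against 55.0% of the 24147 genes and unnamed transcripts with well-measured signal on both arrays (well above background by the scanner flag). That share was 64.8% with median centring and 46.5% with normexp background correction. The male level was 71.6% of the female level for Hcrtr2, 80.0% for Hcrt, 85.8% for Mchr1, 89.0% for Pmch and 93.2% for Hcrtr1. Hcrtr2 and Hcrt were 0.67 technical SDs apart, and with normexp Hcrt had the larger difference. The median male minus female log2 difference was -0.22 over the 5 genes and -0.016 over all genes. Of the 5, Hcrt and Hcrtr2 were lower in males by at least 1.2-fold, against 5.74% of all genes. Hcrtr2 was under that size with normexp, at -0.18, and Hcrt when centred on neuron genes, at -0.26. None was 2-fold apart, against 1.76% of all genes in either direction. Less RNA per cell and fewer orexin or MCH neurons in the block cannot be told apart in such tissue.

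Levels are given as a percentage of the 75th percentile of spot signal on the same array, which was 2203 units for males and 2254 units for females. Differences are male minus female on the log2 scale of these levels. Each difference is set beside a technical SD, the spread of the same difference among repeat spots of a probe at similar signal, which leaves out animals, labelling and whole arrays. It is also set beside the error that the scanner software assigned to the spots, about 10% of a signal and 0.20 on the log2 scale for a difference of bright spots. The 5 probes were well above background on both arrays, unsaturated and without an outlier flag. On the male and female arrays 71.6% and 73.0% of the 58717 spots for rat transcripts were well above background. The hypothalamic peptide genes Avp and Oxt were bright in both pools, with Avp at 3103% and 2813% and Oxt at 1055% and 1076% in the male and female pools.

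Hcrt, the orexin precursor gene, was read by 1 spot. Its signal was 1442 units for males and 1844 units for females, with scanner errors of 144 and 184 units. Scaled, these were 65.5% and 81.8% of the 75th percentile, so the male pool was lower by a log2 difference of -0.32, or 1.25-fold. That is 5.78 times the technical SD of 0.056 and 1.58 times the scanner error. Of 2373 other genes within 0.5 log2 units of its mean signal, 6 (0.253%) had a difference as low or lower. With Hcrt included, 1.22% of the genes at this signal were at least as far apart in either direction. The spots around Hcrt did not share its difference: the median difference of its 18 nearest measured neighbours was -0.015.

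Pmch, the MCH precursor gene, was among the brightest probes of both arrays. Its pair of spots read 4671% and 4379% for males, and 5156% and 5004% for females. Both male spots thus lay below both female spots. The spots gave differences of -0.14 and -0.19, and together -0.17, or 1.12-fold lower in the male pool. The technical SD was 0.027, and the scanner error of 0.20 was larger than the difference. Few genes are this bright: of 55 others within 0.5 log2 units, none had a difference as low, and their median with Pmch was 0.05. The neighbours of the spots had median differences of -0.05 and 0.03.

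The orexin receptor genes were dimmer. Hcrtr1 read 18.3% for males and 19.7% for females, a difference of -0.10 within its technical SD of 0.11. Among other genes of similar signal, 25.2% were as low or lower. Hcrtr2 read 2.47% and 3.45%, a difference of -0.48 with a technical SD of 0.23 and a scanner error of 0.23. Of the other genes of similar signal 3.56% were as low or lower, and with Hcrtr2 included 9.64% were at least as far apart in either direction. Its spot was only 2.71 and 3.14 times the local background in the male and female pools, and normexp background correction, which shrinks dim differences, moved it to -0.18.

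Mchr1, the MCH receptor gene, read 4.89% for males and 5.70% for females. The difference of -0.22 was within its technical SD of 0.23, and with normexp it was -0.10. Of the other genes of similar signal 10.2% were as low or lower, so its place among them was not extreme. Its spot was 4.61 and 5.16 times the local background.

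**Figure D1:**
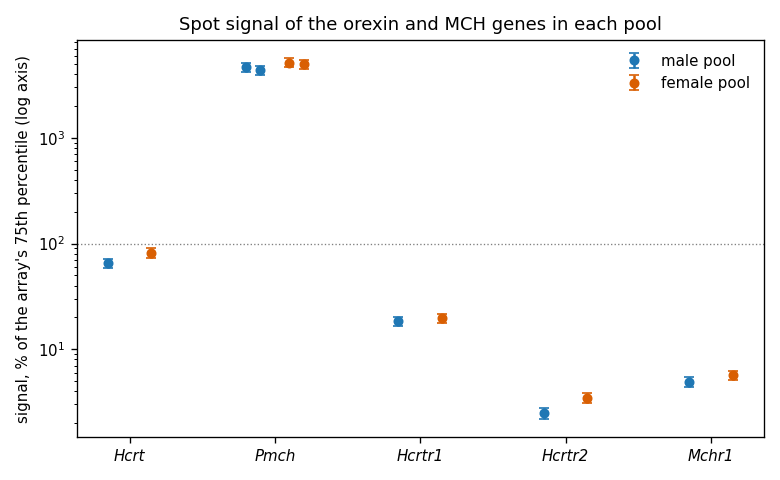
Signal of each spot for the 5 genes as a percentage of the 75th percentile of its array (log axis), male pool in blue and female pool in orange, with the scanner software's error as bars; the dotted line is the 75th percentile. Pmch has 2 spots per pool and the other genes 1, and each gene's male points lie below its female points, with Hcrt at 65.5% and 81.8%.

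Rank within each array gave the same direction. Hcrt ranked 6694 from the top of 45591 probes for males and 5892 for females, the 85.3 and 87.1 percentiles, a shift of -1.76 percentile points. Pmch ranked 45 and 32, and its percentile moved by -0.028 points at the top of the scale. Hcrtr1 ranked 12683 and 12360, a shift of -0.71 points. Hcrtr2 ranked 23575 and 21641 and had the widest shift of the 5, at -4.24 points, while Mchr1 ranked 19834 and 18911, at -2.02 points. Probes bind with different strength, so these ranks do not order the genes by mRNA amount.

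The differences were set against each other in 5 contrasts: the precursors, the orexin receptors, and each precursor with the receptors of its system. Hcrt was further down in the male pool than Pmch by -0.15, or 2.49 times the technical SD of 0.062 for that contrast, though the scanner error of each gene was 0.20. The gap between Hcrtr1 and Hcrtr2 was 0.38, or 1.48 times its technical SD. Hcrt and Hcrtr1 were apart by -0.22 (1.80 times), Hcrt and Hcrtr2 by 0.16 (0.67 times), and Pmch and Mchr1 by 0.05 (0.22 times). With 1 spot for most genes, only the contrast of the precursors was past 2 technical SDs.

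**Figure D2:**
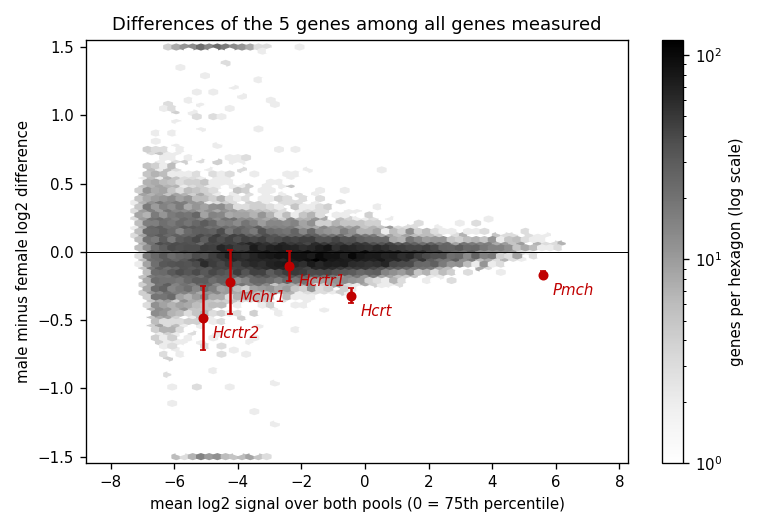
Male minus female log2 difference against mean log2 signal over both pools for 24147 genes and unnamed transcripts (grey hexagons, darker for more genes, differences beyond 1.5 drawn at 1.5), with the 5 genes in red and bars of 1 technical SD. Within 0.5 log2 units of their signal, 6 other genes were as low as Hcrt at -0.32 and none as low as Pmch at -0.17. Hcrtr1, Hcrtr2 and Mchr1 lie within the grey hexagons.

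The start regions of the genes are shown as description, and no link to the differences was tested. RefSeq start windows on GRCr8, from 250 bases before to 50 bases after the start, were held for 3 of the 5 genes. They are printed with TATA boxes and the core of the cyclic AMP response element (CRE) in capitals.
Hcrt, chr10:86191475-86191774, minus strand: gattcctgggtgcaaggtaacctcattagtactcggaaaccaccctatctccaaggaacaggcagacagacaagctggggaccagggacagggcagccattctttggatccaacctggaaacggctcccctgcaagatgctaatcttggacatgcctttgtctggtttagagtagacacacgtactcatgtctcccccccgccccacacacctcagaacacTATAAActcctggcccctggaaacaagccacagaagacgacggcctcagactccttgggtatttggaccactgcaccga
Hcrtr1, chr5:147770801-147771100, minus strand: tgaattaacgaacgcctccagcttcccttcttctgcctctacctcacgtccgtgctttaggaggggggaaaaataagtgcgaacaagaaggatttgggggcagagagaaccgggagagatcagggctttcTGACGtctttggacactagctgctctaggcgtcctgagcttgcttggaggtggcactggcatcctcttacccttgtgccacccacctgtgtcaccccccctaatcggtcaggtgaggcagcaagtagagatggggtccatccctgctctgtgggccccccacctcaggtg
Hcrtr2, chr8:85986356-85986655, minus strand: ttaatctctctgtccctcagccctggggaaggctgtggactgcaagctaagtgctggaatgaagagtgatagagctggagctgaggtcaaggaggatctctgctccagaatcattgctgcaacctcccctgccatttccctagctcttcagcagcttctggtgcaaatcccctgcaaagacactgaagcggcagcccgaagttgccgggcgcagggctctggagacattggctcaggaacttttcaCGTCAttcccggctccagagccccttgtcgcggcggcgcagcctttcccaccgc
A TATA box, TATAAA, stood 29 bases before the start of Hcrt on the gene strand and in neither receptor window. Of 33469 windows of this length, 8.80% held it on the gene strand and 14.2% on either strand. The CRE core, CGTCA or TGACG on the other strand, began 120 bases before the start of Hcrtr1 and 4 bases before that of Hcrtr2, and 21.2% of windows held it. The forkhead core TGTTTA was in none of the 3 windows on either strand, against 13.7% of all. The windows had a GC content of 54.0%, 57.0% and 58.0%, against a median of 51.7%. These matches describe letters only, and no binding was measured.

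Other peptide genes went the same way on balance. Of 35 other hypothalamic precursors well above background on both arrays (of 38 listed), 24 were lower in males and 11 higher. Among all genes 55.0% were lower, and 46.5% with normexp. The precursor median was -0.08, and Hcrt was below 29 of the 35. Kiss1, Npvf, Nmu, Tac3, Crh and Nts were lower still, and Pmch was below 26. This order was not fixed: with normexp Nmu was at -0.24 and Gnrh1 at -0.30, against -0.28 for Hcrt. The spots of Npvf, Nmu, Tac3 and Crh lay in patches of large differences. With the median of their neighbours removed these were at -0.73, -0.38, -1.57 and -0.18, against -0.31 for Hcrt. Crh was at -0.54 on its other probe. Kiss1, the kisspeptin gene, was the single precursor at least 2-fold apart, at -1.22 (-0.40 with normexp). Of the 35, 7 were at least 1.2-fold lower and 2 at least 1.2-fold higher, against 5.74% and 7.17% of all genes. Of 32 measured neuropeptide receptor genes (of 37), 25 were lower and 7 higher, against the same 55.0% of all genes lower. The receptor median was -0.12. Only Sstr2 and Oprk1, for somatostatin and kappa opioid receptors, were below Hcrtr2, at -0.99 and -0.57, whereas 23 were below Hcrtr1 and 10 below Mchr1. Oprk1 was dim, with a technical SD of 0.31, and with normexp it was at -0.15, above Hcrtr2 at -0.18. Below Hcrtr2 with normexp were Sstr2 at -0.45, Npy2r at -0.27 and the thyrotropin-releasing hormone receptor gene Trhr at -0.22. So were Oprl1 at -0.22, Avpr1a at -0.21 and Npy1r at -0.19. On its other probe, well above background in both pools, Oprl1 was higher in males, at 1.27 without normexp. The Sstr2 spot lay in a patch of spots with large differences and read -0.24 once the median of its neighbours was removed. Avpr1a, a vasopressin receptor gene, was at -0.44.

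Genes known from orexin neurons themselves went both ways. Of 7 measured (of 8 listed) 5 were lower, against 55.0% of all genes. The median of the 7 was -0.06, or -0.021 with normexp and -0.017 without spots in patches. Dlk1, a Notch-related ligand gene found in these cells, was at -0.30 with a technical SD of 0.23. Lhx9, a transcription factor gene of orexin neurons, was at -0.13, and Rfx4, another transcription factor gene, at 0.14. Pdyn, the dynorphin gene, whose peptides are released with orexin, read 134% and 131%, a difference of 0.04.

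Genes known from MCH neurons were all lower among the 6 measured of 7, with a median of -0.22. This median was -0.165 with normexp, -0.162 with no filter on dim probes and -0.27 without spots in patches. Here and in the lists that follow, 55.0% of all genes were lower. Tacr3, the neurokinin B receptor gene, read 13.2% and 16.4%, a difference of -0.32, and of -0.17 with normexp. Nucb2, the nesfatin gene, was at -0.28, and Gad2, a GABA synthesis gene, at -0.27. These genes are expressed in many other hypothalamic neurons. Parpbp, whose span on GRCr8 covers that of Pmch, was not well above background in either pool on its 2 probes.

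Genes of the lateral hypothalamus and zona incerta had 11 lower and 2 higher of 13 measured (of 14), with a median of -0.15. Nts, Tac1, Penk, Gal, Cartpt and Pdyn of this list are also among the precursors above, and Ntsr1 and Galr1 among the receptors. Nts, the neurotensin gene, read 37.9% and 49.5%, a difference of -0.39, and the calcium-binding protein gene Calb1 was at -0.30. Slc32a1, the vesicular GABA transporter gene, was at -0.25. Of genes that specify or regulate orexin and MCH neurons 8 of 9 measured (of 12) were lower, with a median of -0.15, and of -0.034 with normexp. Sim1, a transcription factor gene, was at -0.39, Nkx2-1, a hypothalamic patterning gene, at -0.27, and Foxa2 at -0.22 with a technical SD of 0.23. Feeding and metabolic genes had 10 lower and 3 higher of 13 (of 15), with a median of -0.12, and of -0.066 with normexp. Of the measured genes in this list only Bdnf and Cnr1 are in no list above. Npy, Agrp, Pomc and Cartpt are also among the precursors. Lepr is also among the regulators and the lateral hypothalamic genes, and the others are among the receptors. Bdnf was at -0.41, Ghsr at -0.33 and Npy2r at -0.30; with normexp the dim Bdnf and Ghsr were at -0.21 and -0.14, and Npy2r was at -0.27. Bdnf encodes a neurotrophin, Ghsr the ghrelin receptor and Npy2r a neuropeptide Y receptor.

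The enzymes that make active peptides from both precursors were close between the pools. Of the 9 listed 7 were lower, with a median of -0.10, and of -0.053 with the mean over probes. None was 1.2-fold apart, against 5.74% of all genes lower and 7.17% higher by that size. Pam, which amidates orexins, was at -0.14 on 1 probe and 0.03 on its other probe. Scg5, which encodes a chaperone of the convertase PC2, was at -0.12 over 8 spots, and Pcsk1, a convertase gene, was at -0.12 but at 0.23 on its other probe.

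Downstream, 33 of 36 genes for G proteins and effectors were measured, of which 20 were lower and 13 higher, with a median of -0.06. This median was -0.014 with normexp and turned to 0.029 when probes of a gene were averaged. Gnaq, which encodes the G protein that couples orexin receptors to phospholipase C, had a difference of -0.69; its spot lay in a patch of large differences, and it was at -0.13 once the median of its neighbours was removed. Gnai1, for an inhibitory G protein of the kind that couples to the MCH receptor, was at -0.37 and at -0.07 with normexp. Gnao1 was at -0.06, with 0.18 on its other probe, and the channel gene Trpc4 was at -0.29. Among transmitter genes of the arousal systems that orexin excites, 6 of 8 measured (of 12) were lower, with a median of -0.09. It was -0.15 with genes well above background on at least 1 array, which adds Tph2 and Slc6a4. Both were dim and well above background in females only. Against the lowest such signal in males, their female levels were 1.12-fold and 0.98-fold, so no clear difference was shown. Which cells of the block gave the signals of this list was not measured. Hnmt, which breaks down histamine, was at -0.44, and Chat, of acetylcholine synthesis, at -0.40. Maob, a monoamine oxidase gene, was at 0.32, while Hdc, which makes histamine in neurons that carry Hcrtr2, read 103% and 106%, a difference of -0.04.

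**Figure D3:**
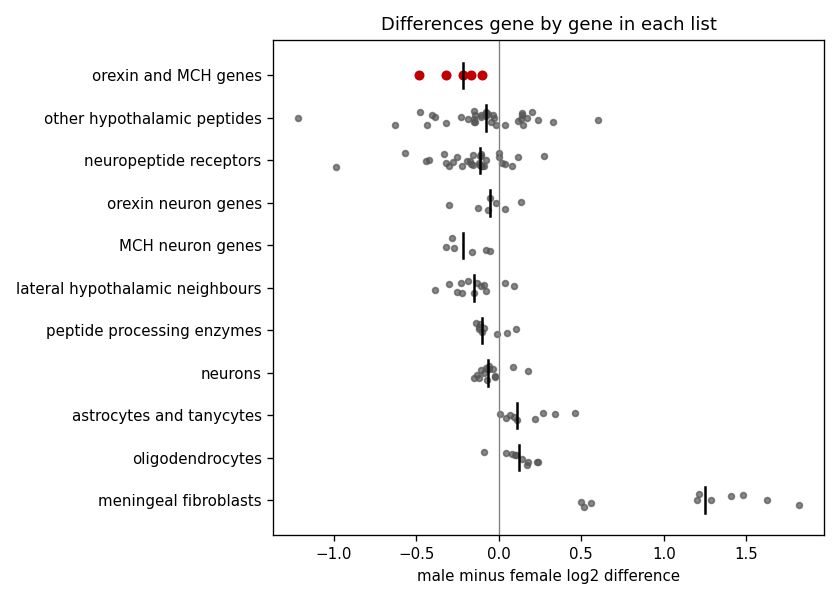
Male minus female log2 difference of each measured gene (points) in the orexin and MCH genes (red) and in 10 lists (grey), with the median as a black line. The 5 red points lie between -0.48 and -0.10, the median of the neuron list is -0.06 and that of the meningeal fibroblast list is 1.25.

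Markers of tissue makeup moved with the pools as well. Of 15 neuron genes 13 were lower in males (median -0.06), and their summed level was 5603% for males and 5907% for females. Higher in the male pool were all 9 measured astrocyte and tanycyte genes of 10 (median 0.11, sums 4886% and 4482%) and 9 of 10 oligodendrocyte genes (0.12, 17637% and 16298%). So were 8 of 10 microglia genes (0.08, 921% and 869%) and 8 of 10 endothelial and mural genes (0.18, 410.0% and 342%). All 10 meningeal fibroblast genes were higher (1.25, 458% and 180%). Choroid plexus and ependyma had 7 higher of 7 measured of 10 (0.25, 242% and 200%), and red blood cells 5 of 5 measured of 6 (0.84, 2357% and 1369%). Centred on the neuron median, an alternative added after the data were seen, Hcrt was at -0.26, Pmch at -0.10, Hcrtr1 at -0.04, Hcrtr2 at -0.42 and Mchr1 at -0.16. Only Hcrt and Pmch, whose technical SDs are small, were then more than 2 technical SDs below 0. The part of tissue makeup in the differences was otherwise not tested.

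Regional markers bear on how each block was cut. Posterior and mammillary genes had 6 lower and 3 higher of 9 measured (of 11), with a median of -0.12. Anterior and preoptic genes had 5 lower and 4 higher of 9 (of 10), with a median of -0.08. With normexp these medians were -0.034 and -0.022. The remaining anterior gene, Six6, was well above background in females only and at least 20.4-fold lower in males, on a spot in a patch. Pituitary genes had 5 higher of 6 measured (of 10; 0.30, sums 322% and 216%). Of these Tshb, dim in females at 0.94%, was at 3.64 (1.80 with normexp). Cga, on a spot in a patch, was at 2.03 (1.85 with normexp). The prolactin gene Prl went the other way, at least 7.91-fold lower in males, where it was not well above background. Its spot also lay in a patch. Thalamic genes had 4 lower and 3 higher of 7 (of 9; -0.06, 1843% and 1905%), cortical and hippocampal genes 4 lower of 5 measured (of 9; -0.20, 693% and 716%), and striatal and amygdalar genes 7 lower of 9 (-0.15, 460.0% and 496%). The part of the dissection in the differences of the 5 genes was not tested.

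**Figure D4:**
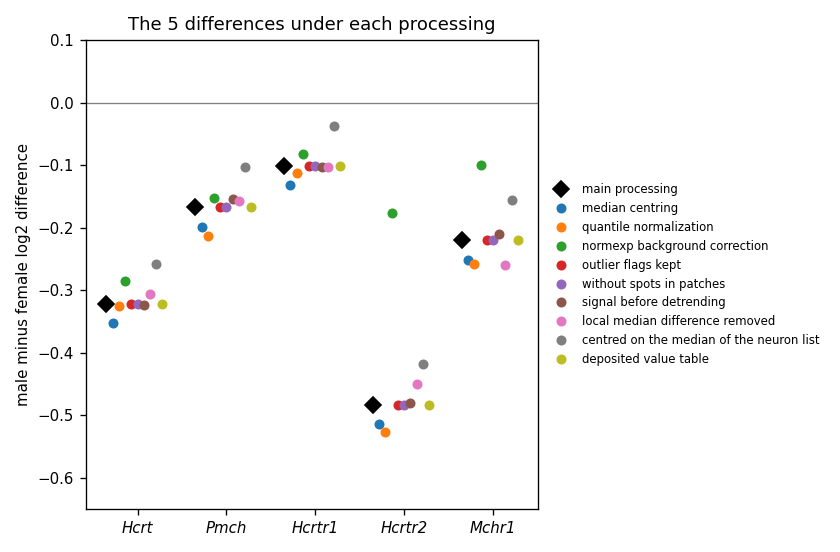
Male minus female log2 difference of the 5 genes under the main processing (black diamonds) and 9 alternatives (coloured circles). All points lie below 0, with Hcrt between -0.35 and -0.26, Pmch between -0.21 and -0.10, Hcrtr1 between -0.13 and -0.04, Hcrtr2 between -0.53 and -0.18 and Mchr1 between -0.26 and -0.10.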

How the data were processed

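The deposited array files hold the processed spot signal, an intensity that, per the file headers, was background-subtracted by Feature Extraction 11.5.1.1 (protocol GE1_1105_Oct12, design build rn4) with no scaling between arrays. The submitters' processing notes name Agilent Feature Extraction 9.1. The deposited value table holds intensity values equal, within 1%, to 100 times the processed signal over the 75th percentile of its array, for all 42947 spots it lists. The arrays shared 1 slide (positions 1 and 2).

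Here, 664 spots that the software marked as outliers were dropped, log2 signals were centred on the 75th percentile over rat transcripts and averaged within each probe, and the pools were subtracted. RefSeq accessions matched a GRCr8 gene table for 46.3% of 45591 probes; probes carrying other identifiers kept them and were not searched for the 5 genes. A gene was its probe of highest mean signal, and counted as measured when well above background on both arrays (more than 50% of spots). A spot lay in a patch when at least 2 of its 18 nearest measured spots of other probes were 2-fold apart in 1 direction. A gene well above background on 1 array only was set against the lowest probe signal well above background on the other, as a bound ("at least"). Normexp (limma 3.58.1) used spot and local background medians with an offset of 50. The scripts were tested on simulated data. The number of arrays limits the precision.

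The genes, 24 lists and thresholds were chosen with earlier results of these data known. Many genes, such as Cartpt, Lepr, Slc17a6, Pdyn, Nts, Tacr3 and Npy2r, are in several lists, so the list counts are not independent. The named genes are the 5 with every probe; of each list on peptides, receptors, regulators, processing or signalling, those 2-fold apart or otherwise up to 3 with the largest difference; Parpbp, Gnaq, Gnai1 and Gnao1; others named, such as Pdyn, Hdc, Avp and Oxt, were chosen after their values were seen.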

Additional observations from a re-analysis of the deposited data

How the results depend on the processing

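The 5 differences stayed negative under all 9 alternatives, though some of these could not change them. At least 1.2-fold lower were Hcrt and Hcrtr2, but Hcrtr2 was not with normexp, nor Hcrt centred on the neuron list. Those that moved past 1 technical SD were Hcrtr2 at -0.18 with normexp, Pmch at -0.20 with median centring, -0.21 with quantile normalization and -0.10 centred on the neuron list, and Hcrt at -0.26 centred on the neuron list. Leaving out spots in patches and keeping outlier flags could change none, since no spot of the 5 genes was in a patch or flagged. The deposited value table holds the same signal on the same scale, so it was no separate check. Ranked among probes well above background, the percentile shifts were -3.31 for Hcrt, -0.048 for Pmch, -2.27 for Hcrtr1, -8.68 for Hcrtr2 and -4.95 for Mchr1; with normexp Pmch shifted by -0.040. The share of genes lower in males was 64.8% with median centring, 46.5% with normexp and 45.4% with no filter. The share at least 1.2-fold lower was 1.62% with normexp, 9.26% with probes well above background on at least 1 array and 12.1% with no filter. At least 1.2-fold higher were 3.31% with normexp and 22.3% with no filter. At least 2-fold apart were 0.783% with normexp, 0.325% without spots in patches, 5.32% with probes well above background on at least 1 array and 6.72% with no filter. Of 240 list medians under alternatives 230 stayed within 1 technical SD, 8 moved and 2 changed sign. The signs that changed were G proteins and effectors at 0.029 with the mean over probes, and cortex and hippocampus at 0.0037 with no filter. The cause was not tested. That technical SD is of 1 spot at the list's median signal, not the spread of a median, and is wide for dim lists. The regulator list, with an SD of 0.23, counted as staying though its median went from -0.15 to -0.034 with normexp. Detrending, neighbour and neuron-list alternatives were added after the data were seen. No paired analysis was possible because each sex was 1 array. Signal over background limits Hcrtr2 and Mchr1 most.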
